A study of Homo sapiens with 3 samples.

Results

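The comparison set the p53 peaks of VCaP cells carrying an shRNA against luciferase, the control, beside those of VCaP cells carrying the first of the study's shRNAs against ERG. VCaP is an established human prostate cancer epithelial cell line with the endogenous p53 mutation R248W, which both groups carry. Chromatin bound by p53 was collected with the antibody DO-1 and sequenced (ChIP-seq), and, per the labels' protocols, at least 3 immunoprecipitations were pooled into each library. These are 2 of the 3 libraries of the series, and their peak lists hold 17986 and 17321 regions, together 35307 of 35740. Each group had 1 library, so the values below describe those libraries, with no replicate check and no p-value, and how far ERG was knocked down was not analysed.

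The tumour suppressor p53 binds DNA as a tetramer and activates genes of cell cycle arrest and apoptosis. The arginine changed by R248W normally touches DNA, and its replacement by tryptophan impairs binding to the usual p53 sites while the protein often accumulates, so that its place on chromatin may depend on partner proteins. ERG is a transcription factor of the ETS family, whose members share a DNA-binding domain for sites with a GGAA core. VCaP cells make much ERG from a fusion that puts the gene under the promoter of TMPRSS2. DO-1 recognises an epitope near the amino terminus of p53 that wild-type and R248W protein share.

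Depth differed between the libraries and set the scale of every height. The control held 9258451 tags and ERG shRNA 4853617, a ratio of 1.91. Peak height was taken as the deposited pileup, the number of extended tags stacked at a peak's summit, per 1000000 tags of its library (RPM). A single control tag was thus worth 0.108 RPM and a single ERG shRNA tag 0.206 RPM. The lowest listed peak had 4 tags in the control, a height of 0.432 RPM, and 3 tags in ERG shRNA, a height of 0.618. The lowest height that was listed was therefore greater in ERG shRNA.

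Most peaks of either list had no partner, where partners are peaks that overlap by at least 1 bp. There were 2444 overlapping pairs, made by 2427 control peaks (13.5% of the control list, exact Clopper-Pearson 95% interval 12.998 to 14.002) and 2432 ERG shRNA peaks (14% of that list, 13.5 to 14.6). Of the pairs, 2386 were one-to-one. A further 17 control peaks touched 2 ERG shRNA peaks each and 12 ERG shRNA peaks touched 2 control peaks each. The intervals here and below cover counting error only.

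Pairing rose with height over most of the range in both lists. In the control, 1564 of 16365 peaks under 1 RPM were paired (9.56%, 9.11 to 10.02). From 1 to 1.5 RPM the share was 46.2% (43.3 to 49.1), and from 2 to 3 it was 79.1% (70.3 to 86.3). In ERG shRNA, 6.50% (5.97 to 7.06) of peaks under 1 RPM were paired, 49.8% (45.8 to 53.9) of those from 1.5 to 2, and 91.7% (82.7 to 96.9) of those from 3 to 5. Above 5 RPM the ERG shRNA share was 77.3% (62.2 to 88.5), lower than in the bin before it, with overlapping intervals.

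**Figure D1:**
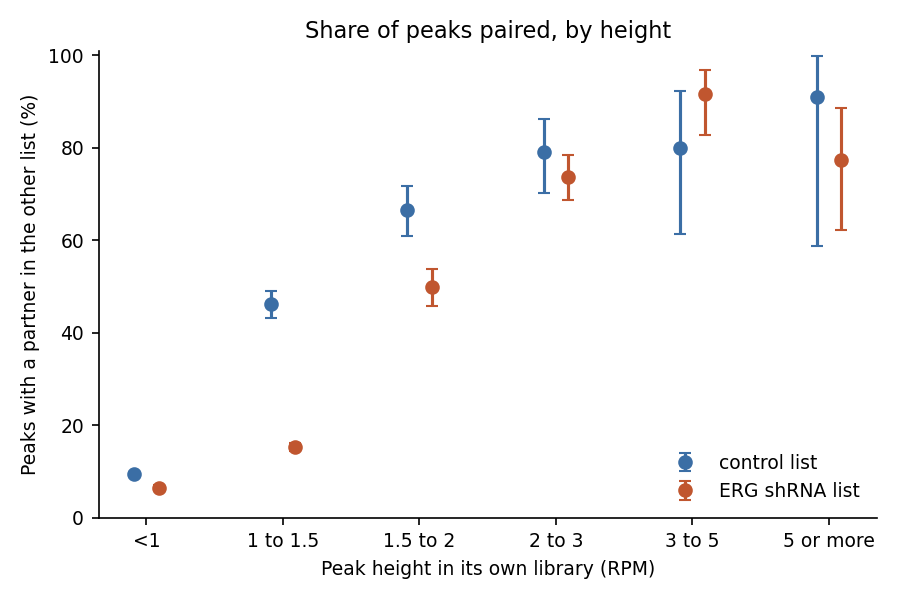
Share of peaks with a partner in the other list (y axis, percent) by the peak's own height in RPM (x axis), for the control (blue) and ERG shRNA (orange) lists; bars are exact 95% intervals for counting error. Under 1 RPM the paired share was 9.56% (control) and 6.50% (ERG shRNA), and from 2 to 3 RPM it was 79.1% and 73.8%.

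The shares in the upper bins differed with the local background, which MACS takes from the input library around each peak. Where the background was under 2 times the genome-wide level, all 15 control peaks of 3 to 5 RPM and all 15 ERG shRNA peaks of 5 or more were paired. Where it was at least 2 times that level, 9 of 15 control peaks of 3 to 5 RPM (60%) and 19 of 29 ERG shRNA peaks of 5 or more (65.5%) were. On low background the share was lower from 2 to 3 RPM, where partners existed for 41 of 43 peaks in the control list (95.3%) and for 162 of 204 in the ERG shRNA list (79.4%). The 11 control peaks of 5 or more RPM were all on high background, and 10 of them (90.9%) were paired. Over all heights the order was the reverse, and the paired share was greater on higher background. In the control it was 12.2% under 2 times the genome-wide level, 23.6% from 2 to 5 times and 34.2% above that. The ERG shRNA shares were 13.1%, 20.4% and 49.5%. Peaks on higher background were also taller. Over the same classes the median height was 0.648, 0.864 and 1.73 RPM in the control and 1.03, 1.24 and 2.27 RPM in ERG shRNA.

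The tallest of those low-background pairs, chosen after their values were seen, show how tall overlapping peaks looked in each library. Whether they are p53 binding sites was not tested. At chromosome 13, 102294075 to 102294293, the control peak had 42 tags and the ERG shRNA peak 38, or 4.54 and 7.83 RPM. At chromosome 15, 55358319 to 55358522, the tags were 42 and 34 and the heights 4.54 and 7.01. At chromosome X, 122655650 to 122655855, 40 and 34 tags gave 4.32 and 7.01. All of these stood higher in RPM in ERG shRNA. The pair at chromosome 3, 116226461 to 116226661, was nearly level, at 3.89 control RPM and 3.91 ERG shRNA RPM. The pair at chromosome 11, 85561297 to 85561510, lay between, at 3.78 and 4.33, with its summit at the same base in both libraries.

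In RPM, paired peaks stood higher in ERG shRNA than in the control by a median factor of 1.34 (log2 0.42, quartiles 0.12 to 0.74), but the direction flipped to log2 -0.51 on raw pileup and to -0.050 on the deposited fold enrichment. Their median height was 0.864 RPM in control cells, against 1.24 RPM with ERG shRNA. ERG shRNA was the taller in 1984 of 2444 pairs (81.2%, 79.6 to 82.7). The listing minimum bears on this share, since a pair with a control height below 0.618 RPM could only be taller in ERG shRNA. Of the paired control peaks, 217 (8.94%) stood below that height. By raw tags ERG shRNA was lower in 1940 pairs, equal in 222 and higher in 282, and 2 peaks of equal tags differ 1.91-fold in RPM. By the deposited fold, which divides pileup by local background after adding 1 to each, ERG shRNA was higher in 1114 pairs (45.6%). The sign of the median height difference between these libraries thus rests on how they are scaled to each other. Single pairs can keep theirs: the 282 pairs higher in ERG shRNA by raw tags were higher in RPM too. Likewise the 460 pairs (18.8%) taller in the control in RPM were taller there by raw tags.

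A height at least 2-fold greater in RPM was found in ERG shRNA for 281 pairs, 11.5% of all pairs, and in the control for 1 pair, 0.0409%. The listing minimum made these counts unequal in reach: a pair could be 2-fold taller in the control only with a control height of at least 1.24 RPM, which 543 pairs (22.2%) had, and 2-fold taller in ERG shRNA only with an ERG shRNA height of at least 0.864 RPM, which 1919 pairs (78.5%) had. The split also turned with the scale. On raw pileup 19 pairs were at least 2-fold higher in ERG shRNA and 456 in the control, and on deposited fold 37 and 37. In 63 of the 281, the control peak had fewer than 6 tags. The single pair in the other direction was at chromosome 8, 56394188 to 56394381, with 20 control tags and 5 ERG shRNA tags, or 2.16 and 1.03 RPM. Among the 285 pairs with at least 10 tags in both libraries the median ratio was 1.53. Of these pairs, 58 were at least 2-fold taller in ERG shRNA and 0 in the control. That cut favours pairs taller in ERG shRNA, since 10 tags are 1.08 RPM in the control and 2.06 RPM in ERG shRNA. Without the 3 places of highest ratio given below, 44 of 271 such pairs were at least 2-fold taller in ERG shRNA. For at least 2 RPM in both, chosen after seeing the data, the median log2 ratio was 0.28, against 0.61 for at least 10 tags.

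The ratio depended on which library was used to sort the pairs. Sorted by control height, the median RPM ratio fell from 1.43 under 1 RPM to 1.14 from 1 to 2 and 1.10 from 2 to 3, and was 1.32 in the 24 pairs from 3 to 5 and 1.22 in the 11 above 5. Sorted by ERG shRNA height, it rose from 1.09 under 1 RPM to 1.65 from 2 to 3 and 1.73 from 3 to 5, and was 1.73 above 5. Sorted by the geometric mean of both heights, it stayed between 1.27 and 1.54 in every bin. Across the pairs the heights had a Pearson correlation of 0.661 on the log2 scale and a Spearman correlation of 0.553 (n = 2444 pairs, which share 2 libraries and had to pass the p cutoff in both).

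**Figure D2:**
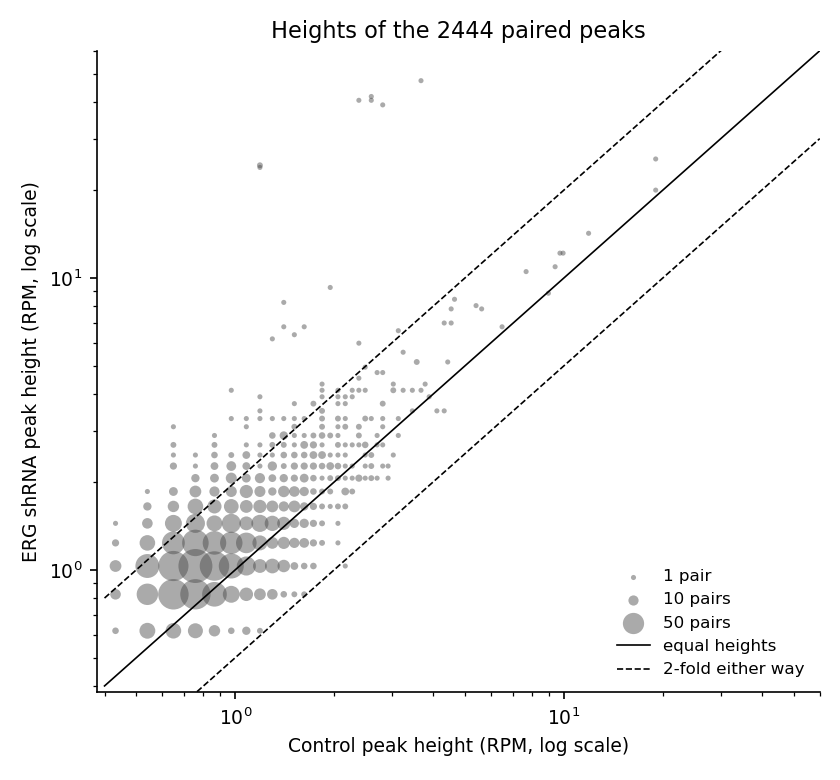
Height of each paired peak in the control (x axis) and in ERG shRNA (y axis), in RPM on log scales; each dot stands for all pairs with those heights and its area grows with their number, the solid line marks equal heights and the dashed lines 2-fold. Of the 2444 pairs, 1984 lie above the solid line, a direction that flips on raw pileup and on deposited fold, and the group far above the upper dashed line reaches a ratio of 20.5.

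The greatest height ratios were gathered at 3 places. Of the 18 pairs at least 4-fold taller in ERG shRNA, 14 lay there, 10 of them on chromosome 22 within EWSR1 by its known hg19 position, with ratios of 4.22 to 20.1. EWSR1 encodes an RNA-binding protein known as a fusion partner of ETS genes in Ewing sarcoma. Whether the signal at the 3 places is p53 binding, or has any tie to ERG, was not tested. At chromosome 14, an ERG shRNA peak of 640 bp at 36350195 to 36350834 covered 2 control peaks, and 11 tags in each control peak faced 118 in ERG shRNA (1.19 and 24.3 RPM, ratio 20.5). At chromosome 22, 29669734 to 29669897, 11 tags faced 116 (ratio 20.1), and at 29684552 to 29684787, 22 faced 197 (17.1). At chromosome 1, 166245455 to 166246838, 24 tags faced 203 (16.1). These ratios were above 1 also on raw tags and on deposited fold. The tallest ERG shRNA peak, on chromosome 22 at 29682865 to 29683174, had 230 tags, which is the most that 115 bp extended tags with 1 kept per position and strand can stack.

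Outside those places the greatest ratio was 4.77. It belonged to chromosome 3, 165677424 to 165677743, with 6 control tags and 15 ERG shRNA tags (0.648 and 3.09 RPM). Chromosome 11, 99394297 to 99394454, followed with 9 and 20 tags (ratio 4.24). The pairs at chromosome 2, 78398594 to 78398809, and chromosome 6, 105187156 to 105187416, each had 6 and 13 tags (ratio 4.13). Each of these ratios rests on fewer than 10 control tags. These 4 were chosen after their values were seen.

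At the other end, among pairs with at least 10 tags in both libraries, the lowest ratio was at chromosome 7, 119297099 to 119297507. There 27 control tags faced 10 ERG shRNA tags, or 2.92 against 2.06 RPM (ratio 0.706), and the summits lay 246 bp apart. Chromosome X, 49830441 to 49830641, had 25 and 10 tags (ratio 0.763), and chromosome 14, 79775613 to 79775806, had 24 and 10 (0.795). The other 2 of the lowest 5 lay near each other on chromosome 8, at 86833501 to 86834159 with 27 and 11 tags (0.777) and at 86733905 to 86734426 with 24 and 10 (0.795), where the control background was 9.96 and 17.8 times the genome-wide level.

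The pairs tallest in both libraries were not the low-background pairs above but lay on stretches of very high background. The 10 pairs with the greatest lower height comprised 6 on chromosome 22 between 18688250 and 21680661, 3 on the unplaced contig Un_gl000212 and 1 on the contig Un_gl000220, which carries ribosomal RNA genes. On Un_gl000212, a control peak of 176 tags (19.0 RPM) at 40516 to 41008 covered 2 ERG shRNA peaks of 97 and 124 tags (19.99 and 25.5 RPM). The background there was 156 times the genome-wide level in the control, and the deposited folds were low, 2.204 for the control peak and 2.90 and 3.33 for its partners. On chromosome 22, the pair at 18688250 to 18688513 had 110 and 69 tags (11.9 and 14.2 RPM) over a control background of 61.0 times. Height ratios of the 10 pairs ran from 0.988 to 1.39.

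Arm by arm, the direction of the median height ratio also depended on the scale. Over the 37 arms with at least 20 pairs, the median ratio ran from 1.18 on 19q to 1.53 on 2p in RPM, above 1 on all 37. On raw pileup it ran from 0.620 to 0.8, below 1 on all 37, and on deposited fold from 0.876 to 1.14, above 1 on 13 and below 1 on 24.

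Paired peaks were narrower in ERG shRNA than in the control, by about the difference in tag extension. MACS extended control tags to 148 bp but ERG shRNA tags to 115 bp, and those lengths were also the smallest widths listed. Paired control peaks had a median width of 181 bp (quartiles 154 to 236) and their partners one of 138 bp (115 to 183). The median difference within a pair was -37 bp (ERG shRNA minus control), and ERG shRNA was the narrower in 1944 pairs (79.5%). With each library's extension length taken off, the median difference was -4 bp, ERG shRNA was narrower in 1295 pairs (53.0%) and wider in 971 (39.7%). The ERG shRNA peak lay wholly inside the control peak in 944 pairs (38.6%), and the reverse held in 133 (5.44%).

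Unpaired peaks stood at the minimum width more often than paired ones in both lists. In the control, 43.5% of unpaired peaks were 148 bp wide, against 19.4% of paired ones. In ERG shRNA, 59.5% of unpaired peaks were 115 bp wide, against 26.4% of paired ones. Width and height went together among pairs: from the bin under 1 to the bin of 3 to 5 RPM by geometric mean height, the median control width went from 171 to 204.5 bp and the median ERG shRNA width from 124 to 174.5 bp. The Spearman correlation of the widths across pairs was 0.158 (n = 2444).

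**Figure D3:**
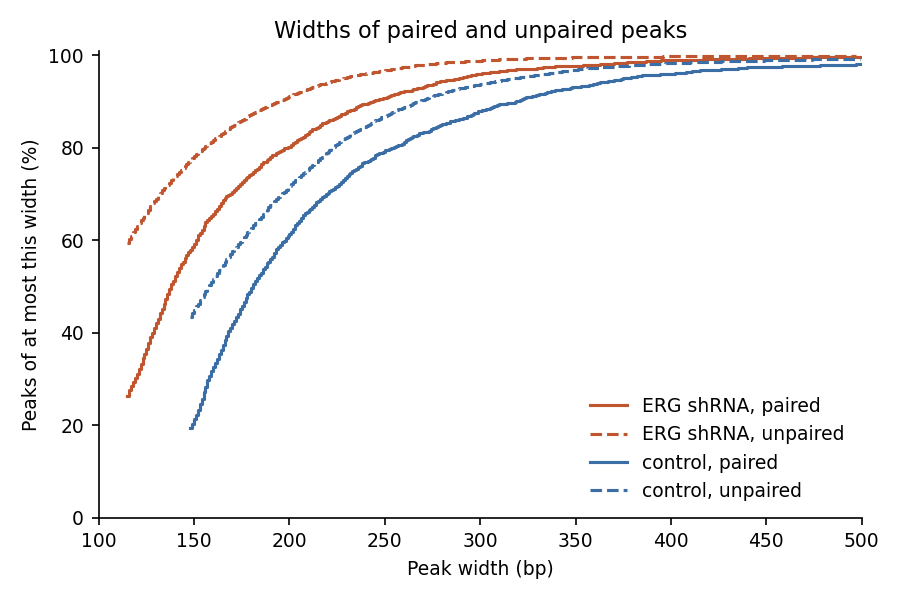
Cumulative share of peaks (y axis, percent) by width in bp (x axis, shown to 500 bp) for paired (solid) and unpaired (dashed) peaks of the control (blue) and ERG shRNA (orange) lists. The left end of each curve marks the share at the minimum width, 19.4% of paired and 43.5% of unpaired control peaks and 26.4% and 59.5% in ERG shRNA.

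Wide peaks were few. Of at least 500 bp there were 154 control peaks, 47 of them paired, and 17 ERG shRNA peaks, 8 of them paired. The pair at chromosome 1, 166245455 to 166246838, was the widest in both lists, at 1384 and 1446 bp. The next widest paired control peak, at chromosome 9, 42483044 to 42484245, was 1202 bp against 339 bp in ERG shRNA, and the next, at chromosome 8, 86796452 to 86797461, was 1010 bp against 176 bp. In ERG shRNA the second widest paired peak, at chromosome 5, 144562659 to 144563457, was 799 bp against 220 bp in the control, with 11 and 6 tags. After it came one of 750 bp at EWSR1, against 675 bp in the control. The widest unpaired ERG shRNA peak, 1208 bp at chromosome 11, 5246138 to 5247345, lies at HBB, the beta-globin gene, by its known hg19 position. It had 13 tags, or 2.68 RPM.

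Summits of paired peaks lay closer together the taller the pair. That they lay close at all follows in part from the pairing rule, since peaks that overlap cannot have distant summits. The median distance was 36 bp (quartiles 14 to 72), 952 pairs (39.0%) had summits within 25 bp, 1538 (62.9%) within 50 bp and 2055 (84.1%) within 100 bp. In 66 pairs (2.70%) the summits were at the same base. By geometric mean height, the median distance was 52 bp under 1 RPM, 30 bp from 1 to 1.5, 20 bp from 1.5 to 3 and 17.5 bp from 3 to 5. Offsets had no preferred side: the ERG shRNA summit had the lower coordinate in 1200 pairs (49.1%) and the higher in 1178 (48.2%), and the median signed offset was 0 bp.

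In 1819 pairs (74.4%, 72.6 to 76.1) each summit lay inside the other library's peak. The remaining pairs touched without sharing both summits, and in 305 (12.5%) less than 50% of the ERG shRNA peak was overlapped. The greatest distance, 603 bp, was at chromosome 1, 77868369 to 77869086, where a control peak of 718 bp and an ERG shRNA peak of 128 bp touched at an end. The next greatest were 515 bp, at the chromosome 8 pair of 1010 and 176 bp above, and 483 bp at chromosome 9, 42764465 to 42765401. In all of these the control peak was the wider.

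**Figure D4:**
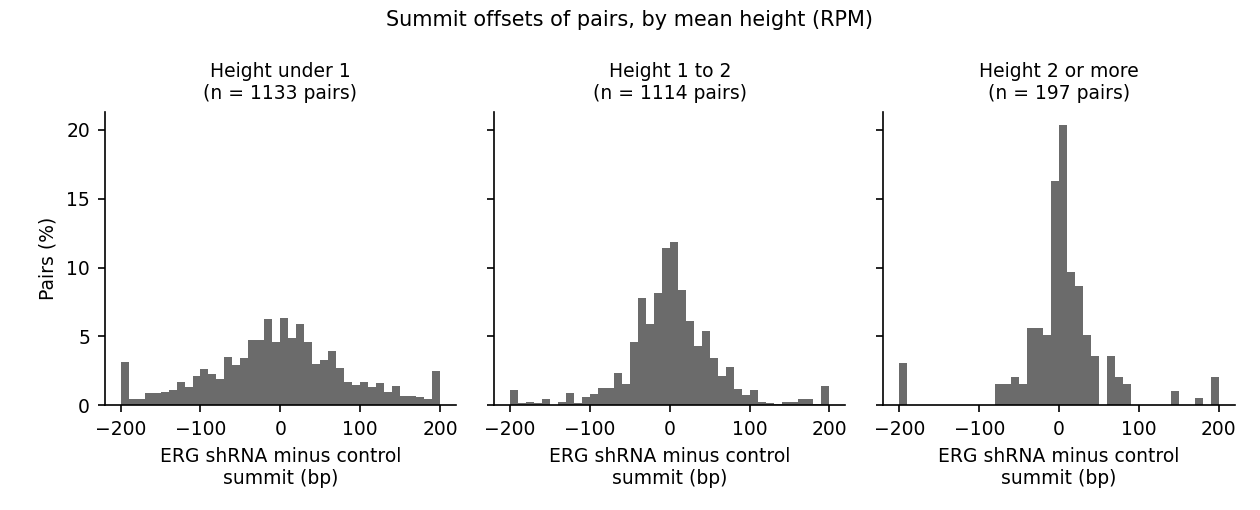
Signed distance from the control summit to the ERG shRNA summit in bp (x axis, 10 bp bins, values beyond 200 bp placed in the end bins) as percent of pairs (y axis), for pairs with a geometric mean height under 1, 1 to 2, and 2 or more RPM. The distribution centres on 0 in each panel and narrows with height, the median distance being 52 bp under 1 and 20 bp from 2 to 3 RPM.

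Unpaired peaks were low. The 15559 unpaired control peaks had a median height of 0.648 RPM (quartiles 0.540 to 0.756), against 0.864 in paired ones, and the 14889 unpaired ERG shRNA peaks had 0.824 (0.824 to 1.03), against 1.24. Of the unpaired control peaks, 4961 (31.9%, 31.2 to 32.6) stood below the smallest height listed in ERG shRNA, against 8.94% of paired ones, so that an equal height in ERG shRNA could not have been listed. All ERG shRNA peaks stood above the smallest control height. An unpaired peak is thus one not listed in the other library, which is not the same as no p53 signal there.

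Few unpaired peaks narrowly missed a partner. Within 100 bp of a peak of the other list lay 179 unpaired control peaks (1.15%) and 199 unpaired ERG shRNA peaks (1.34%), and within 1000 bp 1691 (10.9%) and 1689 (11.3%). The median distance to the nearest peak of the other list was 33.5 kb for control and 35.3 kb for ERG shRNA peaks.

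The tallest unpaired peaks stood on high background, as the tallest pairs did. In the control they were chromosome 22, 21678741 to 21679114, with 51 tags (5.51 RPM), chromosome 8, 86731287 to 86731438, with 33, chromosome 16, 46591146 to 46591297, with 32, and chromosome 8, 86781893 to 86782176, with 30. The backgrounds of these 4 peaks were 16.7 to 47.0 times the genome-wide level and their deposited folds 2.09 to 3.58. In ERG shRNA they were a neighbouring pair of peaks at chromosome 2, 33141295 to 33141411 and 33141569 to 33141707, with 63 and 80 tags (13.0 and 16.5 RPM). Then came peaks on contig Un_gl000220 at 126500, 132907 and 128634, with 51, 51 and 46 tags. On that contig of ribosomal RNA genes ERG shRNA listed 8 peaks and the control 1.

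By chromosome arm, the unpaired peaks of the 2 libraries were spread in broadly the same way. Of the unpaired peaks, 15503 control and 14776 ERG shRNA peaks lay on 44 arms, and the arm 9p carried the most per Mb in both, 16.3 for control and 11.3 for ERG shRNA. In number, 5q (1053 control, 874 ERG shRNA), 4q (1019 and 950), 8q (949 and 594), 7q (926 and 673) and 9p (774 and 533) led the control list. Over the 44 arms the peaks per Mb of both lists had a Pearson correlation of 0.860 and a Spearman correlation of 0.767 (arms share the 2 libraries and the input). ERG shRNA made up 48.8% of the unpaired peaks of both lists.

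Few arms departed from that balance by 1.5 times or more. An arm's ratio is the number of unpaired ERG shRNA peaks over unpaired control peaks, divided by 0.953, the same ratio over all arms. It was at least 1.5 on 4 arms (9.09%), at most 1 in 1.5 on 2 (4.55%) and between on 38. The highest was 21p, with 28 control and 66 ERG shRNA peaks (ratio 2.47). Next were 16p, with 87 and 175 (2.11), 16q, with 65 and 130 (2.10), Xp, with 154 and 265 (1.81), and Xq, with 348 and 481 (1.45). Both arms of chromosome 16 and both arms of chromosome X were thus among the 5 highest. With peaks on background under 2 times the genome-wide level alone, chosen after seeing the data, Xq and 19q were past 1.5 as well. With all peaks the ratio of 19q was 1.09.

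On some of these arms a single window of 1 Mb held much of the excess. On Xp the window from 49 to 50 Mb held 3 unpaired control and 42 unpaired ERG shRNA peaks, and the ratio without it was 1.55. On 16p the window from 32 to 33 Mb held 8 and 42 (1.77 without it), and on 21p that from 9 to 10 Mb held 7 and 31 (1.75 without it). Without the next window of 21p, 10 to 11 Mb, with 19 and 32, its ratio was 3.96. On 16q the ratio was 1.97 without the window from 65 to 66 Mb, with 1 and 10. It was 2.45 without that from 90 to 91 Mb, with 12 and 6.

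The lowest ratios were on Yq, with 139 control and 86 ERG shRNA peaks (0.649), and 8q, with 949 and 594 (0.657). After them came 9p (0.723), Yp, with 41 and 29 (0.742), and 7q (0.763). On Yp a single window set the direction, since without 9 to 10 Mb, which held 22 and 10, the ratio was 1.05. Both calls past 1.5 ended when 1 window was left out, any of 4 on Yq or any of 3 on 8q. No single window did so on 16p, 16q or Xp, whose unpaired peaks lay in 33, 42 and 58 windows. None did so on 21p either, but its unpaired peaks lay in only 3 windows, and leaving 1 out gave 1.75 to 3.96. The 8q ratio lay close to the cut, and leaving out any 1 of its 98 windows gave 0.644 to 0.670. Without 25 to 26 Mb, which held 28 and 5, Yq was at 0.766, and without 24 to 25 Mb, with 28 and 6, at 0.756. Without 87 to 88 Mb, with 32 and 8, 8q was at 0.670. On 9p the fullest window, 42 to 43 Mb, held 142 and 105 unpaired peaks, and the ratio without it was 0.711. On 7q, 80 to 81 Mb held 32 and 7, and the ratio without it was 0.782. With paired peaks counted too, the 6 arms past 1.5 leaned the same way, so the lean was not particular to unpaired peaks. Control and ERG shRNA peaks were then 35 and 73 on 21p, 116 and 204 on 16p, 80 and 145 on 16q and 196 and 307 on Xp. They were 1050 and 694 on 8q and 159 and 106 on Yq, against 17914 and 17191 on all main chromosomes.

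**Figure D5:**
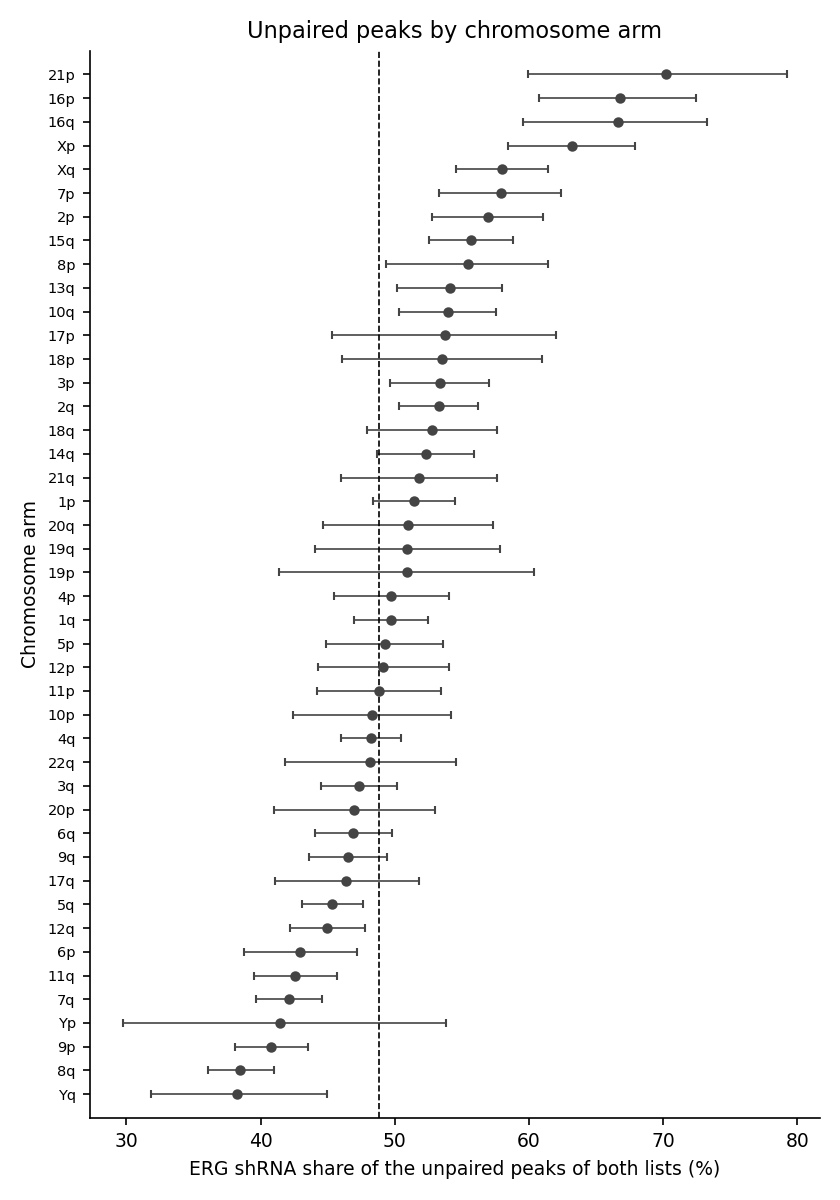
ERG shRNA share of the unpaired peaks of both lists (x axis, percent) for each of the 44 chromosome arms (y axis, sorted), with exact 95% intervals for counting error; the dashed line is the share over all arms, 48.8%. Shares run from 38.2% on Yq to 70.2% on 21p.

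The share of peaks that were paired also differed between arms. It was highest on 19q, at 37.9% of 169 control and 37.0% of 173 ERG shRNA peaks, and lowest on 21q, at 5.23% of 153 and 4.88% of 164. On 19q, 40% of the unpaired control peaks lay where the background was at least 2 times the genome-wide level, against 13.8% of the unpaired ERG shRNA peaks, and on 22q the shares were 38.3% and 10.9%. The part of background in these shares was not tested. On contigs outside the arms, 16 of the 72 peaks listed for the control had a partner, and 17 of the 130 listed for ERG shRNA.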

How the data were processed

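The submitters' processing notes name MACS2, bedtools, Bowtie2 and Picard 2.14.0, and the build hg19. Narrow peaks were called library by library with MACS 2.2.7.1, per the file headers, against an input of 14360465 tags at a p cutoff of 0.001, keeping no more than 1 tag per position. The input, being larger, was scaled down, so pileups are unscaled tags. The deposited pileup is a coverage signal in extended tags, the deposited fold enrichment a ratio with 1 added to both terms, and the deposited −log10 p and q columns were told apart by the MACS layout. Widths and summits are as deposited.

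Heights are pileup per 1000000 of the header's total tags (RPM). Background was recovered from pileup and fold, and its genome-wide level is total tags times extension length over the header's genome size. Arms were split at the hg19 centromere gaps as known from that build, in which 0 peaks of either list lay, and Mb exclude the gap. Arms needed at least 50 unpaired peaks. The pairing was tested on simulated lists. The work was done in Python 3.11.15 (scipy 1.17.1, pandas 2.3.3, numpy 2.4.6; plots in matplotlib 3.10.9). Medians in the sensitivity check have order-statistic 95% intervals.

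Named pairs were taken by rule: the 10 of greatest lower height, the 5 of highest and 5 of lowest ratio with at least 10 tags in both, the 5 tallest unpaired peaks and 3 widest paired peaks of each list, and the 5 highest, 5 lowest and 5 fullest arms. One of the tallest unpaired control peaks is not reported here. The comparison and the rules were chosen with earlier results of these data known. The gene table used covers another build, so genes are named only from known hg19 positions, and sequences were not used here.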

Additional observations from a re-analysis of the deposited data

How the results depend on the processing

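Of 44 alternatives to 6 values, 25 left the value within its interval or 1.5 times the count, 17 moved it and 2 reversed it. The median log2 height ratio of 0.42 was -0.51 on raw pileup and -0.050 on deposited fold, 0.78 on pileup over genome-wide background, and 0.61 for at least 10 tags in both libraries. For at least 2 RPM in both, chosen after seeing the data, it was 0.28. Raw pileup and genome-wide background shift every pair by a constant, the ratio of depths or of extension lengths. The cause of the other changes was not tested. The paired shares (control, then ERG shRNA) were 9.66% and 10.03% at a reciprocal overlap of 50%, and 22.9% and 23.8% within 1000 bp. They were 17.3% and 12.8% for heights reaching the other list's smallest, and 11.9% and 12.3% for background under 2 times genome-wide, chosen after seeing the data. With q at most 0.05 in both lists the ERG shRNA share was 15.7%. The width difference was -33 bp at 50% reciprocal overlap and -4 bp without extension lengths. The summit distance was 27 bp at 50% reciprocal overlap, 31 bp with q at most 0.05 and 19 bp for at least 10 tags in both. The number of arms past 1.5 stayed between 4 and 7, against 6: 16p and Xp were among them in every alternative run, whereas 21p was lost with arms split at the longest stretch without peaks, without dense windows and at a minimum of 200 unpaired peaks. 8q was lost with q at most 0.05, without dense windows and at low background, and Yq with arms split at the longest stretch. Arms gained in some alternative were 8p, 19p, 19q and Xq among the higher and Yp among the lower. The split at the longest stretch, counted from the chromosome start, moved arm boundaries and left 42 arms, against 44. Arms of the same name thus hold different peaks under it, and its changes to 21p, Yq and Yp are not losses or gains of the same peaks. Yp was gained also with q at most 0.05 and for heights reaching the other list's smallest. At a minimum of 200, 21p could not be called, having 94 unpaired peaks. No paired analysis was possible because no replicates exist within either group.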
